A study of Bos taurus with 48 samples.

Results

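The miRNAs described here are those whose names were first given in cattle: the rows of the deposited table whose names carry a number from 2286 to 2490, from 2881 to 2904 (but not 2898), from 3431 to 3436 or from 11970 to 12070. The rule found 86 members among the 524 miRNAs of the table. Of these, 55 carried a number of the first range, 4 of the second, 1 of the third among the rows analysed here and 26 of the last. A miRNA is a short RNA cut from a hairpin precursor, and it lowers the output of the messenger RNAs that pair with it. The hairpin has a 5' arm (5p) and a 3' arm (3p), each of which can give a mature miRNA. Numbers are given in the order of naming, so a high number marks a miRNA named late, and many such miRNAs lie inside the transcript of another gene, the host gene.

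Small RNA libraries were sequenced from 3 tissues of cattle, namely mammary parenchyma (the glandular part of the mammary gland), the mammary fat pad around it, and liver. In each tissue the animals had a control diet, a restricted amount of milk replacer, or milk replacer ad libitum. Parenchyma had 15 samples (6 ad libitum, 6 restricted, 3 control), the fat pad 16 (6, 6 and 4) and liver 17 (6, 6 and 5), which made 48 in all. Age, breed and sex, and what the control animals were fed, are left unstated in the sources read for this work. The labels do not say whether the samples of a group came from separate animals, so each p-value measures the spread between these samples only.

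The values are read counts that the authors divided by 1 factor for each library, and they are called normalised read counts here. The libraries differed in depth: 6193678 to 11291532 reads on miRNAs in parenchyma, 2123962 to 9522666 in the fat pad and 826776 to 5146724 in liver. The lowest value above 0 was 6 reads in every library, so a miRNA with 1 to 5 reads is listed at 0. After normalisation those 6 reads were worth 1.58 to 3.47 in parenchyma, 2.99 to 14.0 in the fat pad and 5.68 to 37.2 in liver. A low level could therefore be seen in a deep library and be listed at 0 in a shallow one.

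The tissue labels were checked with marker miRNAs. The mean log2(value + 1) of 4 hepatocyte miRNAs was 15.8 to 16.7 in liver and 5.61 to 9.46 in the other tissues. The mean of 9 measured epithelial miRNAs (of 10 listed) was 11.5 to 12.4 in the 12 parenchyma samples fed milk replacer and 0.467 to 3.36 in the fat pad, where miR-141, miR-429 and miR-96 were at 0 in every sample. The 3 control parenchyma samples stood apart from the other parenchyma samples. Their epithelial mean was 2.73 to 4.17, near the fat pad values, with miR-429 at 0 in all 3. Replicate 18 of the 3 had a mean of 12.9 over 7 immune-cell miRNAs, against 8.62 and 8.67 in the other two, 8.81 to 9.97 in the parenchyma fed milk replacer and 10.1 to 11.4 in liver. Replicates 1 and 2 had means of 12.8 and 12.3 over 3 adipocyte-linked miRNAs, within or near the 11.6 to 12.6 of the fat pad, and replicate 18 had 8.82. Liver had 10.4 to 11.8 over the same 3, so this list does not mark fat alone. For the tissue comparisons with parenchyma, what changed without these samples is given beside the results. In such tissue samples, fewer cells of a type and less RNA per cell cannot be told apart.

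How many members were detected depended on the tissue and on the depth of the library. In parenchyma 78 of the 86 members were above 0 in at least 1 sample, in the fat pad 40 and in liver 44. Of the 438 other miRNAs 428, 376 and 355 were, in the same order, so parenchyma held the most there too. Far fewer members were above 0 in all samples of a tissue: 14 in parenchyma (16.3%), 9 in the fat pad (10.5%) and 7 in liver (8.14%). Among the 438 other miRNAs of the table the counts were 287 (65.5%), 255 (58.2%) and 232 (53.0%). The median over the members of their mean value in a tissue was 1.01 in parenchyma, 0 in the fat pad and 0.362 in liver, and over the other miRNAs it was 199, 92.8 and 105. The cattle-named miRNAs were thus mostly scarce: 17 of them were above 0 in 1 sample of the 48, 32 in at most 3 samples, and 24 reached a mean of 10 in a tissue.

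A parenchyma sample held 35.3 ± 6.35 detected members (SD, n = 15, range 25 to 49), a fat pad sample 17.5 ± 5.77 (n = 16, 9 to 29) and a liver sample 18.5 ± 3.89 (n = 17, 13 to 27). Parenchyma exceeded the fat pad by 17.8 members (two-sided permutation test, adjusted p = 3e-05 over the 3 tissue pairs) and liver by 16.8 (adjusted p = 3e-05). Liver and fat pad differed by 0.971 (adjusted p = 0.599). Parenchyma also had the deepest libraries, and the order changed when all libraries were held to 1 limit. At 7.26 reads in 1000000, which is 6 reads in the smallest library, a parenchyma sample held 9.20 ± 1.97 members, a fat pad sample 6.44 ± 1.71 and a liver sample 10.3 ± 2.71. Liver then exceeded the fat pad by 3.86 members (permutation test, adjusted p = 0.00012), parenchyma exceeded it by 2.76 (adjusted p = 0.00084), and liver and parenchyma differed by 1.09 (adjusted p = 0.23). Of all miRNAs a parenchyma sample held 263 to 309 at this limit, a fat pad sample 238 to 271 and a liver sample 238 to 277. At a value of at least 10, a liver sample held 17.1 ± 3.11 members, more than the 14.5 ± 2.00 of parenchyma (permutation test, adjusted p = 0.0123) and the 11.6 ± 1.82 of the fat pad (adjusted p = 6e-05). The fat pad had fewer members than parenchyma under all 3 limits, which is not given as a trait of the members.

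**Figure D1:**
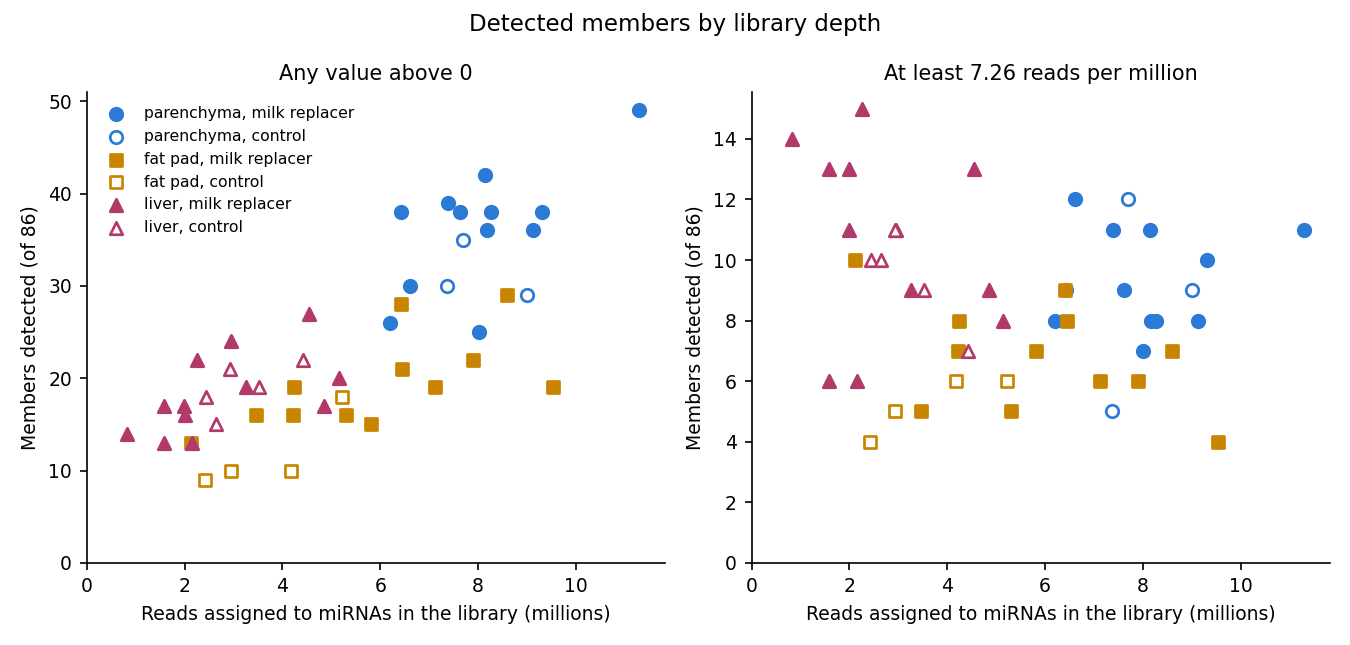
Members detected in each sample (vertical axis, of 86) against the reads assigned to miRNAs in its library (horizontal axis, in units of 1000000), by tissue, with control samples as open marks. With any value above 0 counted (left) the deep parenchyma libraries lie highest, 25 to 49 members, and with at least 7.26 reads in 1000000 required (right) parenchyma (5 to 12) and liver (6 to 15) overlap.

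The tissues shared some members and not others. The same split was not made for the other miRNAs of the table, so it is not given as a trait of the members. Above 0 in at least 1 sample of all 3 tissues were 27 members. Parenchyma and fat pad shared another 12, and parenchyma and liver another 10. Seen in parenchyma alone were 29, of which 13 were above 0 in 1 sample, so that depth and tissue cannot be told apart for them. Seen in liver alone were 7 (miR-11975, miR-11978, miR-12001, miR-12004, miR-12023, miR-2424 and miR-2468). Of the 7, 4 were above 0 in 1 sample and 6 in at most 3 samples. The most frequent of the 7 was miR-11975, with a value above 0 in 5 of 17 liver samples and a highest value of 93.0. Another, miR-12004, was above 0 in 3 liver samples, at up to 12.0, and its gene lies inside SELENOP, whose protein carries selenium and is made mainly by the liver. In the fat pad alone was miR-2346, in 2 samples. The 29 of parenchyma included miR-11998, above 0 in 5 of 15 samples at up to 7.03, whose gene lies inside ZEB1, a repressor of epithelial genes.

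Host genes were looked up in the RefSeq gene table of assembly ARS-UCD2.0, which gives no strand. For 82 members a miRNA gene of the same name was found, 72 genes in all, and 4 members (miR-11976, miR-2404, miR-2887 and miR-2904) had none. Inside a protein-coding gene were 57 of the 72 (79.2%), against 65.2% of the 1028 miRNA genes placed in that table. Another 4 lay inside a long non-coding RNA gene only and 11 inside no gene.

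The members took a small part of all miRNA values in every tissue. Their share was 0.0642% ± 0.0160 in parenchyma (SD, n = 15), 0.0471% ± 0.00666 in the fat pad (n = 16) and 0.0723% ± 0.0229 in liver (n = 17). It was lower in the fat pad than in parenchyma and in liver (permutation test, adjusted p = 0.00018 for both), and liver and parenchyma differed by 0.00810 percentage points (adjusted p = 0.261). One member, miR-3431, made up 56.2% of the members' sum in parenchyma, 73.0% in the fat pad and 38.0% in liver. Without miR-3431 the share was 0.0286% ± 0.00987, 0.0130% ± 0.00335 and 0.0444% ± 0.0234, and all 3 tissue pairs differed (permutation test, adjusted p = 3e-05 for both pairs with the fat pad and 0.0183 for liver against parenchyma).

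The most abundant member in each tissue was miR-3431, whose gene lies on chromosome X inside GABRE, the gene of a subunit of the GABA-A receptor, within 10 kb of the genes of miR-224 and miR-452. Parenchyma had a lowest, median and highest normalised read count of 734, 1179 and 3529, the fat pad of 848, 1658 and 2796, and liver of 570, 1436 and 2360. The 3 ranges overlapped almost wholly. By its mean it ranked 133rd, 108th and 122nd of all 524 miRNAs in parenchyma, fat pad and liver. It was 1 of 3 members above 0 in all 48 samples, with miR-2484 and miR-2419-5p. After it came miR-2419-5p (mean 212), miR-2387 (157), miR-2478 (136) and miR-2484 (88.2) in parenchyma. In the fat pad they were miR-2483-5p (151), miR-2419-5p (97.7), miR-2484 (63.2) and miR-2483-3p (54.7), and in liver miR-2484 (603), miR-2419-5p (416), miR-2332 (377) and miR-2411-3p (275). Mature miRNAs are of about the same length, so these levels were compared without a length correction. A paper that used these data says that library preparation may favour some miRNAs over others. No correction for that was made here, in these ranks or in the shares of the arms.

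**Figure D2:**
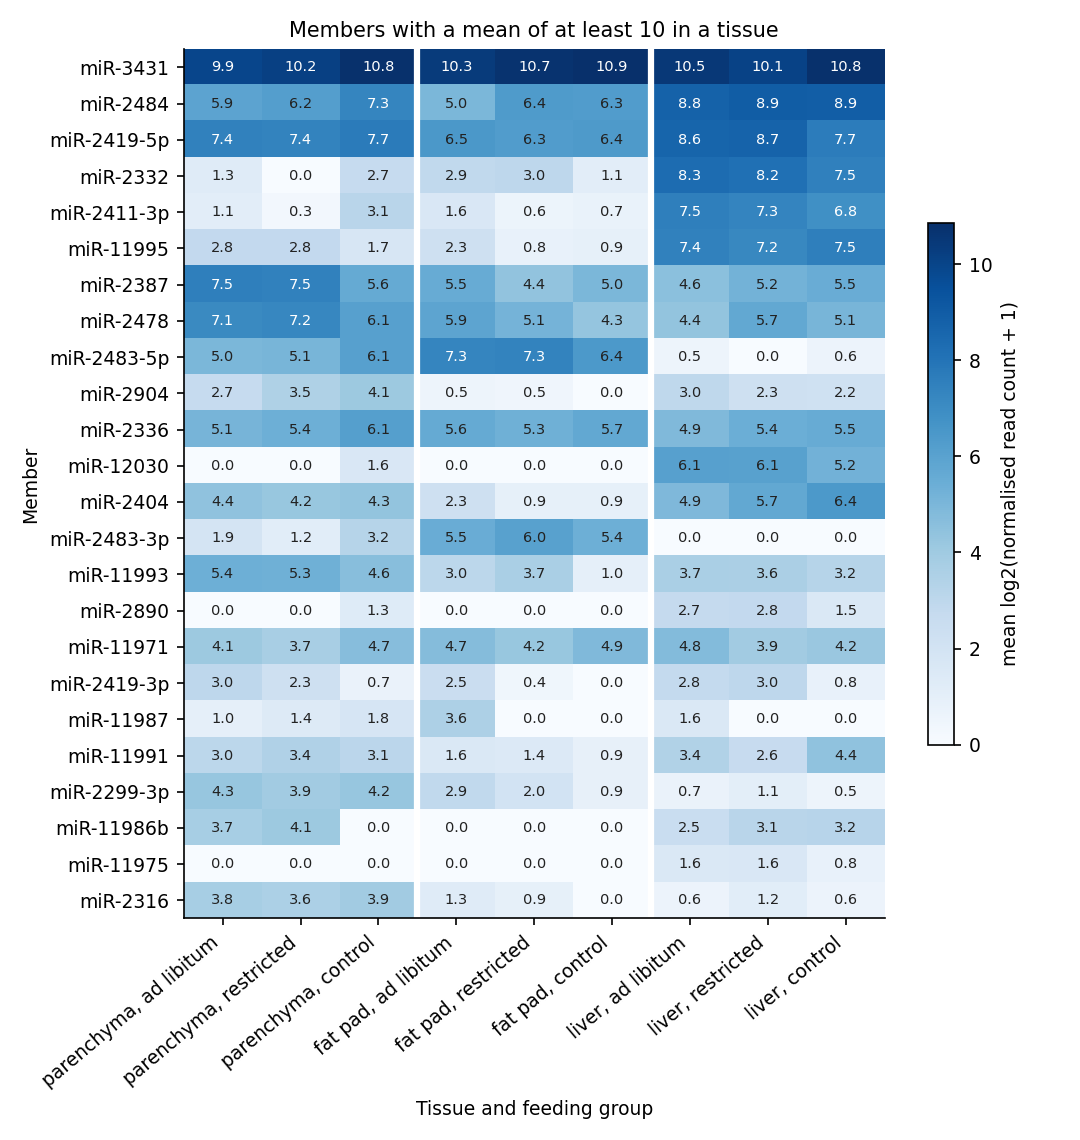
Mean log2(normalised read count + 1) of the 24 members whose mean reached 10 in a tissue, in the 9 groups of tissue and feeding. The row of miR-3431 is dark throughout, the rows of miR-2484, miR-2332, miR-2411-3p, miR-11995 and miR-12030 are darkest in liver, and both arms of miR-2483 are darkest in the fat pad and near 0 in liver.

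The first tissue comparison set parenchyma against the fat pad, the glandular against the fatty part of the mammary gland. Of 13 members with a mean of at least 10 over these samples, 9 differed by limma on log2(value + 1), 6 of them higher and 3 lower in parenchyma. Of all 336 miRNAs tested 78.0% differed (46.7% higher, 31.2% lower), so the members' 69.2% was near the background. A scarce member can pass the filter through the tissue where it is high. Of the 13 tested, 3 (miR-11993, miR-2404 and miR-2299-3p) had a mean of at least 10 in parenchyma but not in the fat pad. For 1 (miR-2483-3p) it was the reverse. The counts therefore describe these 13 only, and the p-values of the members so named reflect the filter too. Without the control parenchyma samples the same comparison gave 11 members, now with miR-11971 (adjusted p = 0.0131) and miR-2332 (log2 difference -1.83, adjusted p = 0.032). The median log2 difference of all tested miRNAs was 0.41. When every library was rescaled to the same sum it moved to 0.77, and 7 members were higher and 2 lower.

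Higher in parenchyma were miR-2387, miR-2478, miR-11993, miR-2404, miR-2299-3p and miR-2419-5p. The gene of miR-2387 lies inside GTF2IRD1, a transcription factor gene, and its lowest, median and highest values were 27.8, 173 and 258 in parenchyma and 9.33, 29.8 and 61.1 in the fat pad. The 12 parenchyma samples fed milk replacer, from 111 upwards, were all above the fat pad samples, while the control parenchyma values of 42.8, 27.8 and 89.7 reached into the fat pad range. Parenchyma was higher by a log2 difference of 2.13 ± 0.28 (SE, limma adjusted p = 6.12e-08), a 4.38-fold difference, and 2.51 without the control parenchyma samples (adjusted p = 4.52e-12). For miR-2478, whose gene lies in no other gene, the values ran from 46.3 over 121 to 267 in parenchyma and from 14.5 over 41.3 to 93.1 in the fat pad. Here too the control parenchyma samples were among the lowest of their tissue, at 79.9, 46.3 and 79.9. That gave a log2 difference of 1.76 ± 0.26 (limma adjusted p = 6.25e-07), and 1.97 without the controls (adjusted p = 4.14e-08). For miR-11993, inside SLC49A3, the ranges were 12.7 to 65.1 in all 15 parenchyma samples and 0 to 16.8 in the fat pad, and the overlap came from control parenchyma replicate 1, at 12.7. Its log2 difference was 2.46 ± 0.45 (limma adjusted p = 1.29e-05), and 2.60 without the controls (adjusted p = 1.22e-05).

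The remaining higher members lay nearer to the limit of detection or differed less. A value above 0 was found for miR-2404 in all 15 parenchyma samples (median 22.8) and in 7 of 16 fat pad samples, with a log2 difference of 2.92 ± 0.49 (limma adjusted p = 4.38e-06) that fell to 0.60 (adjusted p = 0.000346) once every value below the highest limit of detection among the libraries compared was raised to that limit. Both arms of miR-2299, whose gene lies inside B3GLCT, a glycosyltransferase gene, were above 0 in all 15 parenchyma samples. The 3p arm had a median of 15.8 there and 5.68 in the fat pad (log2 difference 2.09 ± 0.46, limma adjusted p = 0.000135, and 0.33 after that raising, adjusted p = 0.00545). The 5p arm had a median of 7.36 in parenchyma, was above 0 in 2 fat pad samples and was listed at 0 in all 17 liver samples. The median of miR-2419-5p was 207 in parenchyma against 94.4 in the fat pad, and the ranges of 52.1 to 596 and 21.8 to 183 overlapped widely (log2 difference 1.09 ± 0.34, limma adjusted p = 0.00419).

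Lower in parenchyma were both arms of miR-2483 and miR-3431. The gene of miR-2483 lies on chromosome X inside TENM1, a gene of a cell-surface adhesion protein. Values of miR-2483-5p ran from 9.80 over 29.5 to 195 in parenchyma and from 14.0 over 146 to 233 in the fat pad. Among the parenchyma samples fed milk replacer the highest value was 67.3 and the 12 corresponding fat pad samples began at 116, so these did not overlap. The control samples went across: control parenchyma replicates 1 and 2 had 153 and 195, and fat pad control replicate 2 had 14.0, the limit of detection of that library. These same parenchyma replicates 1 and 2 had the adipocyte-linked means of 12.8 and 12.3 given above, and the part of fat in their values was not tested. Over all samples the log2 difference was -1.85 ± 0.36 (limma adjusted p = 2.58e-05), and -2.07 without the control parenchyma samples (adjusted p = 1.87e-07). For miR-2483-3p the values were 0 over 3.57 to 53.4 in parenchyma and 18.7 over 56.0 to 109 in the fat pad. Its log2 difference was -3.79 ± 0.48 (limma adjusted p = 2.76e-08), and -4.14 without those samples (adjusted p = 6.29e-11). Of the 3 members, miR-3431 differed least, by -0.41 ± 0.17 (limma adjusted p = 0.0321; -0.57 without the control parenchyma samples, adjusted p = 0.000855), and with rescaled libraries the difference was 0.02 (adjusted p = 0.896).

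The second comparison set liver against parenchyma. Of 19 members tested 12 differed by limma, 8 higher and 4 lower in liver, which was 63.2% of the members against 74.6% of all 343 miRNAs tested (29.7% higher, 44.9% lower). The median log2 difference of all miRNAs was -0.36, or -0.82 with rescaled libraries. Without the control parenchyma samples 13 members differed, now with miR-3431 (0.38, adjusted p = 0.0387). The third comparison, liver against fat pad, gave 12 of 19 members, 10 higher and 2 lower, against 77.5% of 325 miRNAs (36.3% higher, 41.2% lower). The median of all miRNAs was -0.20. Of the 19 members tested against the fat pad, 9 had a mean of at least 10 in liver only and 2 in the fat pad only. The 9 were miR-11991, miR-11993, miR-11995, miR-12030, miR-2404, miR-2411-3p, miR-2419-3p, miR-2890 and miR-2904, and the 2 were both arms of miR-2483. Against parenchyma 5 had such a mean in liver only (miR-11995, miR-12030, miR-2411-3p, miR-2419-3p and miR-2890) and 1 in parenchyma only (miR-2483-5p). These counts, and the p-values of such members, therefore reflect the filter too. The 3 tissue comparisons share samples, so they are given side by side.

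The 5 members with the largest rises over parenchyma were miR-2332, miR-2411-3p, miR-12030, miR-11995 and miR-2484. The clearest separation was that of miR-11995, whose gene lies inside a long non-coding RNA gene (LOC101907203). Its lowest, median and highest values were 94.1, 146 and 327 in liver, 0, 6.32 and 8.33 in parenchyma, and 0, 0 and 11.5 in the fat pad. Every liver sample was above every mammary sample. In both comparisons miR-11995 passed the filter through liver alone, so its p-values reflect the filter too. The log2 difference of liver from parenchyma was 4.77 ± 0.26 (SE, limma adjusted p = 1.05e-17) and from fat pad 6.00 ± 0.41 (adjusted p = 1.51e-15), and after all values were raised to the highest limit of detection it was 2.12 in both (adjusted p = 1.47e-15 and 7.08e-17).

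For miR-2332, inside UTP6, a gene of ribosomal RNA processing, liver values ran from 38.8 over 218 to 1091. In the parenchyma it was above 0 in 3 of 15 samples: 18.7 and 10.6 in ad libitum replicates 7 and 11, and 277 in control replicate 18. In the fat pad it was above 0 in 9 of 16, at up to 110. The log2 difference was 6.96 ± 0.65 against parenchyma (limma adjusted p = 1.96e-11) and 5.54 ± 0.66 against the fat pad (adjusted p = 1.67e-09), and 2.58 and 2.66 after the raising of low values. The values of miR-2411-3p, inside UBAP2L, ran from 20.8 over 128 to 1159 in liver. It was above 0 in 6 parenchyma samples, of which control replicate 18 had 122 and the others at most 6.91, and in 5 fat pad samples, of which ad libitum replicate 3 had 45.4 and the others at most 10.4. The log2 differences were 6.06 ± 0.62 and 6.22 ± 0.57 (limma adjusted p = 1.38e-10 and 4.34e-12), and 1.94 and 2.03 after that raising. In both comparisons miR-2411-3p passed the filter through liver alone, so its p-values reflect the filter too. The other arm, miR-2411-5p, was listed at 0 in all liver samples.

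The gene of miR-12030 lies inside another long non-coding RNA gene (LOC112448761). It was above 0 in all 17 liver samples, from 8.99 over 56.1 to 289, and was listed at 0 in all 16 fat pad samples and in 14 of 15 parenchyma samples. The exception was again control replicate 18, with 28.4. This member also passed the filter through liver alone. Liver differed from parenchyma and from the fat pad (limma adjusted p = 1.94e-12 and 4.28e-17), by log2 differences of 0.85 and 0.85 after that raising (adjusted p = 0.0024 and 0.00156). Another member, miR-2890, had the same distribution at lower levels, with 8 liver samples above 0, at up to 155, none in the fat pad and control replicate 18 of parenchyma alone at 15.2. It too passed the filter through liver alone. Its differences (limma adjusted p = 0.0127 against parenchyma and 0.00246 against fat pad) no longer passed once values were raised to the highest limit of detection (adjusted p = 0.08 and 0.0686).

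The values of miR-2484, on chromosome X inside the protein-coding gene LOC112445178, were 146, 432 and 2124 in liver (lowest, median, highest), 38.7, 75.4 and 268 in parenchyma and 24.4, 57.5 and 124 in the fat pad. Liver was above the fat pad in every sample. It overlapped with parenchyma only through control replicate 18, at 268, since the next highest parenchyma value was 145. The log2 difference was 2.58 ± 0.32 from parenchyma (limma adjusted p = 8.95e-09) and 3.05 ± 0.31 from the fat pad (adjusted p = 5.61e-11). Parenchyma and fat pad did not differ beyond their spread (0.48, adjusted p = 0.103) with the normalisation of the authors, and did with rescaled libraries (0.86, adjusted p = 0.000933).

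Parenchyma control replicate 18 thus carried the highest parenchyma value of miR-2332, miR-2411-3p, miR-12030, miR-2890 and miR-2484, and also of miR-2336 (245, where the next was 54.5), miR-2419-5p (596, next 337) and miR-11991 (63.2, next 15.6). In the same library miR-11995 was 8.33, against 94.1 or more in liver, and the hepatocyte mean was 8.38, against 15.8 or more. The immune-cell mean of 12.9 was the highest of the 15 parenchyma samples, and its part in these values was not tested. Without the 3 control parenchyma samples the log2 differences of liver from parenchyma were 7.37 for miR-2332, 6.55 for miR-2411-3p, 2.82 for miR-2484 and 4.55 for miR-11995 (limma adjusted p at most 1.2e-09), and miR-12030 and miR-2890 also passed (adjusted p = 1.73e-14 and 0.00737).

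Other members were higher in liver by less. For miR-2419-5p the liver values were 126, 294 and 1041, and the log2 difference was 2.00 ± 0.33 from the fat pad (limma adjusted p = 1.51e-06) and 0.91 ± 0.34 from parenchyma (adjusted p = 0.0184, and 0.431 with rescaled libraries). For miR-2404 they were 0, 71.0 and 207, with 4.20 ± 0.60 from the fat pad (limma adjusted p = 7.7e-08) and 1.29 ± 0.51 from parenchyma (adjusted p = 0.0225, but 0.0926 with rescaled libraries and 0.158 in the milk replacer groups only). Above the fat pad alone were miR-11991, inside OSBPL9 (median 21.9 in liver, 0 in the fat pad, adjusted p = 0.00591), and miR-2904 (median 8.51 and 0, adjusted p = 0.00818). Both lost the call once values were raised to the highest limit of detection (limma adjusted p = 0.115 and 0.323), and miR-11991 also in the milk replacer groups only (adjusted p = 0.113). One liver library, ad libitum replicate 3, had 604 of miR-2904, where the next highest had 48.1.

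Lower in liver than in parenchyma were miR-2483-5p, miR-2387, miR-2478 and miR-11993. In liver miR-2483-5p was above 0 in 2 of 17 samples, at 7.47 and 7.57, and miR-2483-3p was listed at 0 in all 17. Against parenchyma the log2 difference of the 5p arm was -4.87 ± 0.40 (limma adjusted p = 8.74e-13) and against the fat pad -6.73 ± 0.34 (adjusted p = 2.85e-19). In both comparisons the 5p arm passed the filter through the mammary samples alone. The 3p arm was above 0 in all 16 fat pad samples and passed the filter through them alone (limma adjusted p = 4.82e-23). After raising to the highest limit of detection the calls held, with differences of -0.42 and -1.92 for the 5p arm and -0.53 for the 3p arm. The liver medians of miR-2387 and miR-2478 were 42.3 and 36.2, close to the fat pad medians of 29.8 and 41.3. Their log2 differences from parenchyma were -2.05 ± 0.41 and -1.91 ± 0.42 (limma adjusted p = 3.5e-05 and 0.000118), and from the fat pad 0.08 and -0.15 (adjusted p = 0.838 and 0.741). For miR-11993 the liver median was 15.5 and the difference from parenchyma -1.67 ± 0.47 (limma adjusted p = 0.00209), or -0.19 after the raising of low values (adjusted p = 0.0079). Among the members for which no pair passed were miR-2336 (medians 38.0, 42.9 and 44.9 in parenchyma, fat pad and liver) and miR-11971 (12.5, 21.2 and 19.7), though miR-11971 was lower in parenchyma than in the fat pad without the control parenchyma samples (limma adjusted p = 0.0131).

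**Figure D3:**
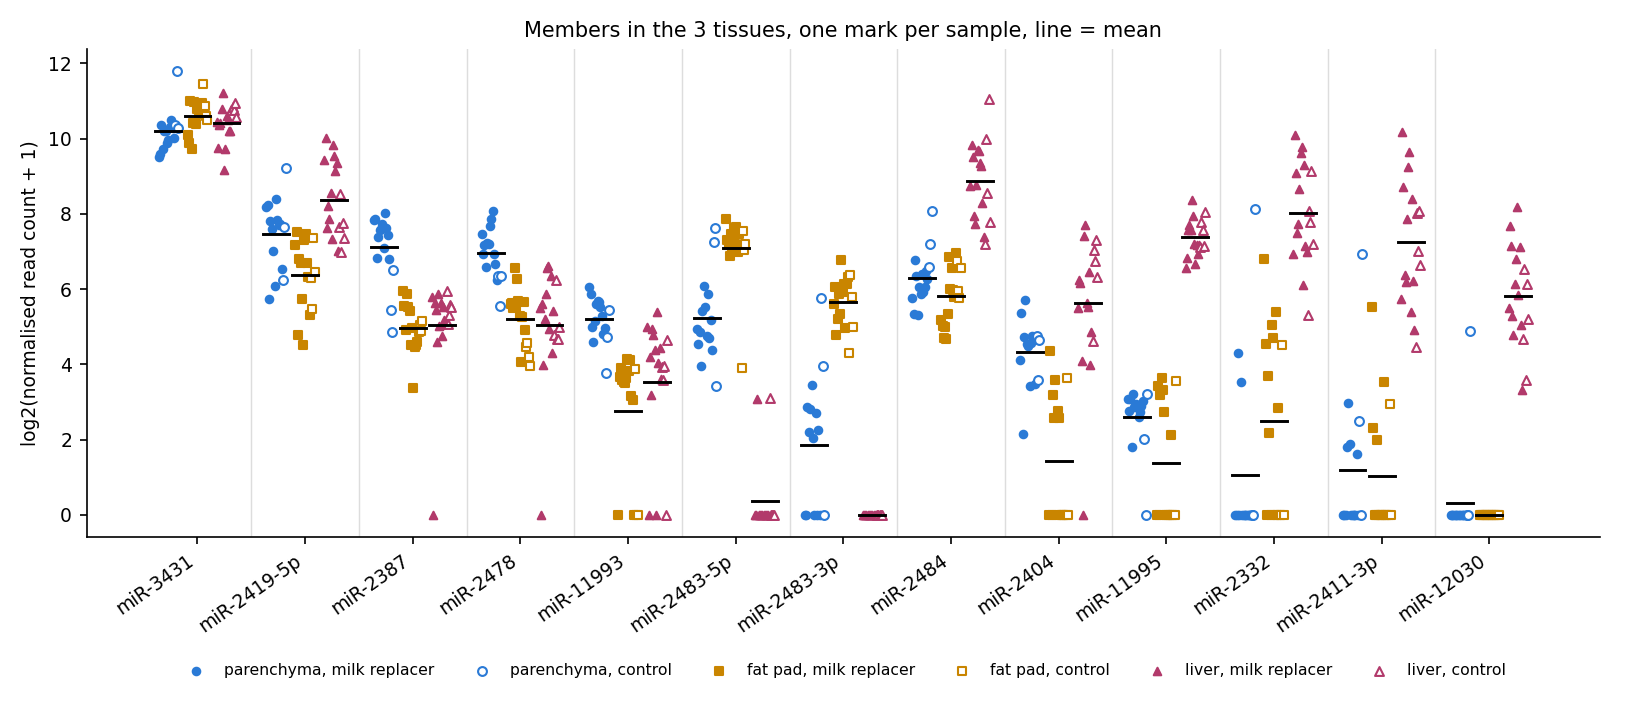
log2(normalised read count + 1) of 13 members (horizontal axis) in every sample of the 3 tissues, with control samples as open marks and a line at each tissue's mean. The liver marks of miR-11995 lie above all mammary marks, those of both arms of miR-2483 lie at or near 0, and 1 open parenchyma mark (control replicate 18) lies among the liver marks of miR-2332 and miR-2411-3p.

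The liver members did not vary alike among the 17 liver samples. Correlations were computed between 7 members and the library's reads, 28 relations in all, on log2 values. The values of miR-2332 and miR-2411-3p went together (Pearson's r = 0.96, permutation adjusted p = 0.00028; Spearman's rho = 0.966, adjusted p = 0.00028), with r = 0.946 once the 2 most distant samples were left out. So did miR-2411-3p and miR-12030 (r = 0.83, adjusted p = 0.00084; rho = 0.85, adjusted p = 0.000653; 0.746 without 2 samples), and miR-2484 and miR-12030 (r = 0.722, adjusted p = 0.0061; rho = 0.828, adjusted p = 0.000653; 0.823 without 2 samples). Between miR-2332 and miR-11995 r was 0.228 (permutation adjusted p = 0.507, rho = 0.294, adjusted p = 0.336; 0.367 without 2 samples), so no such relation was shown for miR-11995. The correlation with library reads was -0.507 for miR-2332, -0.545 for miR-2411-3p and -0.538 for miR-12030 (permutation adjusted p = 0.075, 0.058 and 0.058; rho = -0.466, -0.422 and -0.488, adjusted p = 0.111, 0.146 and 0.103), and their highest or second highest values were in the smallest library, ad libitum replicate 6. Leaving out 2 samples in the same way gave -0.246, -0.248 and -0.388. These relations were chosen after the values had been seen. They were not computed for the other liver miRNAs, so they are not given as a trait of the members. Centring on the feeding groups left r at 0.964, 0.83 and 0.767 for the 3 pairs given first. Also past the threshold on r were miR-2484 with miR-2411-3p, miR-2332 and miR-2404 (r = 0.742, 0.694 and 0.598). So were miR-12030 with miR-2332 and miR-2419-5p (0.735 and 0.588), the last not on ranks (permutation adjusted p = 0.045, and 0.085 for rho).

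**Figure D4:**
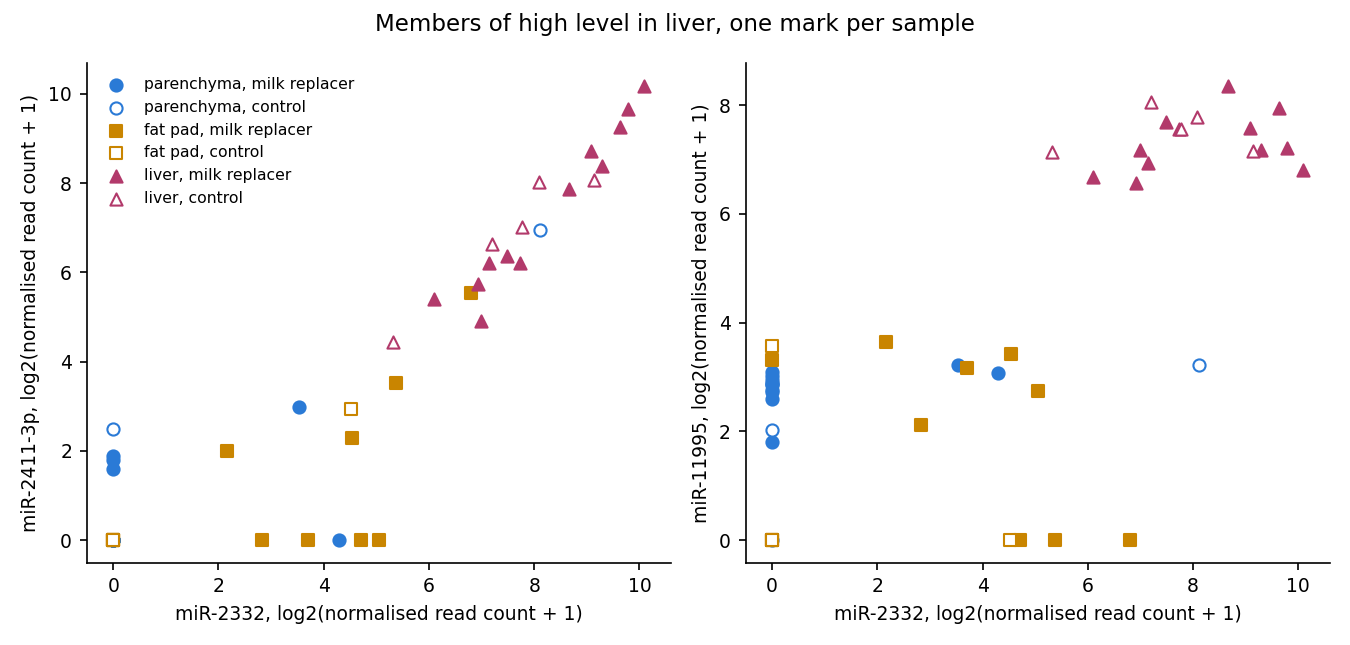
log2(normalised read count + 1) of miR-2411-3p (left) and miR-11995 (right) against that of miR-2332 in all 48 samples, with control samples as open marks. The liver marks follow a line on the left (r = 0.96) and form a level band on the right (r = 0.228), and the open parenchyma mark far to the right is control replicate 18.

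For 10 hairpins both arms were in the table. The 5p arm of miR-2419 was the higher arm in all 48 samples, with a median share of 94.1% of both arms together in the 9 parenchyma samples where both were above 0, 92.4% in 5 fat pad samples and 91.7% in 7 liver samples. The 5p arm of miR-2483 had a median share of 87.5% in 9 parenchyma samples and 72.8% in 16 fat pad samples. The 3p arm was higher in 1 sample, fat pad control replicate 2 (14.0 and 18.7), where the arms had 6 and 8 reads, at or near the limit of detection. For miR-2411 the 3p arm was the higher arm in all 17 liver samples. For miR-2431 the higher arm was 3p in 11 of 15 parenchyma samples and 5p in 10 of 16 fat pad samples, but the highest value of either arm in these tissues was 14.0, so most values lay near the limit of detection.

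Feeding was compared within each tissue, first ad libitum against restricted milk replacer. In parenchyma none of 15 members and 0% of 333 miRNAs passed by limma (11 of these miRNAs and no member had an unadjusted p below 0.05), and in liver none of 19 members and 0% of 308 miRNAs (12 miRNAs and no member). In parenchyma the members with the lowest p were miR-3431 (log2 difference -0.23, 95% interval -0.64 to 0.19), miR-2336 (-0.26, -0.76 to 0.23) and miR-11986b (-0.35, -1.11 to 0.40), each with a limma adjusted p of 0.9. In liver they were miR-2478 (-1.34, -3.23 to 0.54), miR-3431 (0.43, -0.19 to 1.04) and miR-11971 (0.83, -0.99 to 2.66), each with an adjusted p of 0.97.

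In the fat pad 3 of 12 members differed (25.0%), 2 higher and 1 lower ad libitum, against 16.4% of 305 miRNAs (8.20% higher, 8.20% lower). The value of miR-2484 was lower ad libitum: 35.5, 31.3, 25.0, 31.0, 24.4 and 39.3 there, and 115, 62.7, 92.7, 61.5, 54.5 and 124 in the restricted group. The groups did not overlap, and the 4 control samples, at 107, 60.5, 53.7 and 94.0, lay in the range of the restricted group or just below it. The log2 difference was -1.37 ± 0.25 (SE, limma adjusted p = 0.00352), which passed without any 1 of the 12 samples. The value of miR-2387 was higher ad libitum, with a median of 45.5 (29.2 to 61.1) against 21.8 (9.33 to 30.4). The groups overlapped through the lowest ad libitum sample. Its log2 difference was 1.13 ± 0.29 (limma adjusted p = 0.0196), and the adjusted p was 0.0507 without ad libitum replicate 9. The third was miR-11987, whose gene lies in no other gene: it was listed at 0 in all 6 restricted samples and had 21.7, 5.21, 114, 22.0, 0 and 6.20 ad libitum (limma adjusted p = 0.0344). It passed the filter through the ad libitum group alone, and without replicate 7, at 114, its mean fell below 10 and it was not tested. This call was lost without any 1 of 7 samples (replicates 4, 8, 9, 10, 13, 15 or 16, highest adjusted p = 0.0867), and when values were raised to the highest limit of detection (adjusted p = 0.243). In liver the values of miR-11987 above 0 were also ad libitum, 78.8 in replicate 3 and 7.47 in replicate 7, while in parenchyma 7 of 15 samples from all 3 feeding groups were above 0, at up to 11.9.

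Whether the ad libitum difference itself varied between tissues was tested with an interaction term: none of 20 members and 0% of 345 miRNAs passed by limma (22 miRNAs and 1 member had an unadjusted p below 0.05). For miR-2484, with a log2 difference of -1.37 in the fat pad, -0.23 in parenchyma and -0.20 in liver, the adjusted p was 0.725. It was 0.776 for miR-3431 and miR-2478. A difference between tissues was thus not shown.

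The second feeding comparison set both milk replacer groups against the control diet. In parenchyma 4 of 16 members differed (25.0%), 3 higher and 1 lower with milk replacer, against 45.4% of 339 miRNAs (30.1% higher, 15.3% lower). With rescaled libraries 3 were higher and 0 lower. The comparison rests on the control samples that stood apart by their epithelial miRNAs. The lowest p was that of miR-11986b, whose gene lies inside OCLN, the gene of occludin, a protein of the tight junctions between epithelial cells. In the 12 milk replacer samples its lowest, median and highest values were 8.75, 15.4 and 25.8, in the 3 control samples it was listed at 0, and the groups did not overlap (limma adjusted p = 3.88e-06). It passed the filter through the milk replacer samples alone, so its call and this p-value reflect the filter too. It was also listed at 0 in all 16 fat pad samples, whose epithelial mean was at most 3.36, and was above 0 in 11 of 17 liver samples, whose epithelial mean was 6.71 to 8.79. The liver median of miR-11986b was 17.0, the value of restricted replicate 4. That value is the limit of detection of its library, worth 6 reads. The milk replacer parenchyma median of 15.4 came from samples with 19 to 72 reads. The liver median thus depended on the limit of detection and was not ranked against that of parenchyma. In parenchyma the epithelial mean was at least 11.5 in the 12 samples where miR-11986b was above 0, and at most 4.17 in the 3 where it was not. Its part in the result was not tested.

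The other parenchyma calls moved with the same samples. The value of miR-2387 was 111 over 190 to 258 with milk replacer and 42.8, 27.8 and 89.7 in the controls, without overlap (log2 difference 1.88 ± 0.35, limma adjusted p = 0.000259). For miR-2478 the values were 74.1 over 144 to 267 against 79.9, 46.3 and 79.9 (1.09 ± 0.36, limma adjusted p = 0.0208, and 0.101 without control replicate 2). The value of miR-2484 was lower with milk replacer, 38.7 over 66.0 to 108 against 95.2, 145 and 268 (-1.23 ± 0.36, limma adjusted p = 0.0088), and the adjusted p was 0.0671 without control replicate 18 and 0.0517 with rescaled libraries. For miR-3431 the log2 difference was -0.76 ± 0.31 (limma adjusted p = 0.0517), and control replicate 2 had 3529 against 1305 and 1244 in the other two.

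In the fat pad 1 of 11 members differed (9.09%), against 11.0% of 301 miRNAs (7.31% higher, 3.65% lower). It was miR-2478, with 15.5 over 46.3 to 93.1 in the 12 milk replacer samples and 21.0, 22.8, 17.2 and 14.5 in the controls. A single restricted sample, replicate 8 at 15.5, lay within the control range. The log2 difference was 1.20 ± 0.30 (limma adjusted p = 0.0177), and the adjusted p was at most 0.0619 when control replicate 19 or 21 was left out, which lost the call. In liver none of 19 members passed, against 6.80% of 309 miRNAs, 1.62% higher and 5.18% lower (2 members and 59 miRNAs had an unadjusted p below 0.05). The lowest p-values were those of miR-2419-5p (log2 difference 1.00, 95% interval 0.05 to 1.95, limma adjusted p = 0.221), miR-3431 (-0.50, -0.99 to -0.01, adjusted p = 0.241) and miR-2419-3p (2.07, -1.10 to 5.25, adjusted p = 0.504).

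**Figure D5:**
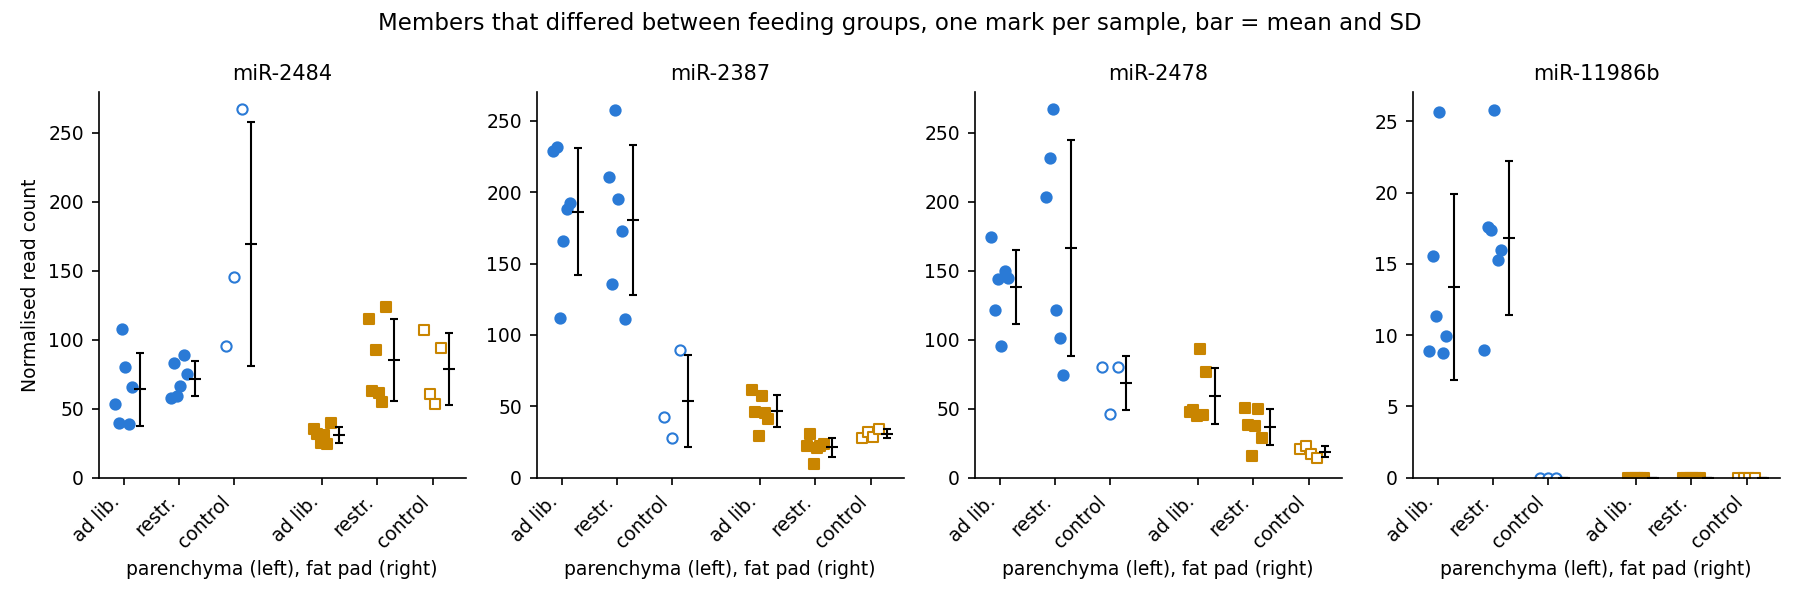
Normalised read count of miR-2484, miR-2387, miR-2478 and miR-11986b in every parenchyma and fat pad sample by feeding group, with the mean and SD as a bar beside the marks and control samples as open marks. In the fat pad the ad libitum values of miR-2484 (24.4 to 39.3) lie below all restricted values (54.5 to 124), and miR-11986b is above 0 in the milk replacer parenchyma alone.

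The effect of milk replacer against control differed between tissues for 1 of 19 members, miR-2387, by an interaction test (limma adjusted p = 0.0188), against 39.7% of 345 miRNAs. Its log2 differences were 1.88 in parenchyma, -0.01 in the fat pad and -0.61 in liver. With fat pad and liver alone in the test no member passed. The number of detected members and their share were compared in 6 feeding comparisons each. A fat pad sample held 19.4 ± 4.96 members with milk replacer and 11.8 ± 4.19 in the controls (difference 7.67, exact permutation p = 0.00879, adjusted p = 0.0527), with a median depth of 6115032 and 3559044 reads. Of all miRNAs such a sample held 298 to 377 with milk replacer and 279 to 330 in the controls. At 7.26 reads in 1000000 the values were 6.83 ± 1.75 and 5.25 ± 0.957 (exact permutation adjusted p = 0.435). With any value above 0 counted, no other feeding comparison of detected members came below an adjusted p of 0.506. None of the share came below 0.607 (exact permutation tests). Under the other limits the lowest was ad libitum against restricted in the fat pad. Its adjusted p was 0.403 at the common limit and 0.182 at a value of at least 10 (exact permutation tests).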

How the data were processed

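Small RNA was sequenced from frozen tissue with a small RNA library kit and gel size selection. According to the submitters' processing notes bcl2fastq, FastQC, Trim Galore and DESeq2 were used, without a stated version. The deposited values are read counts that the authors divided by 1 size factor for each library, so they are not whole counts and no count test was used. They lay on whole steps of 1 read (tolerance 0.01), which gave the depth of each library: the median was 8007299 reads in parenchyma, 5261943 in the fat pad and 2651081 in liver.

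The members and lists were chosen with earlier results of these data known. Differences were tested with limma 3.58.1 (R 4.3.3) on log2(value + 1) with a trended prior, for miRNAs with a mean of at least 10 in the samples compared, so 11 to 20 of the 86 members were tested in a comparison. P-values were adjusted by Benjamini-Hochberg over all miRNAs tested, with a threshold of 0.05. The 1 added before the log2 scale lessens changes of low levels, while listing 1 to 5 reads at 0 can enlarge them, and no fold is given against a group listed at 0. Tissue comparisons used all samples of both tissues with no covariate, and milk replacer against control weighted both milk replacer groups equally. Detected members and shares were compared with two-sided permutation tests of the mean difference (100000 resamples between tissues, all permutations within a tissue), adjusted over each family. The limma script was tested on simulated data. Members were named by a rule: up to 10 in each direction for a tissue comparison, 5 for a feeding comparison, the 3 with the lowest p where none passed, the 5 most abundant in a tissue, and those above 0 in all samples of one tissue and at 0 in another. Other members named were chosen after their values were seen. In the 109 pairs of samples of one group the smallest chi-square per degree of freedom was 65.3, so no pair was counted as 1 sample. Alternatives covered the pseudocount (5), the filter (1, 50 or none), rescaling to a sum of 1000000, milk replacer groups only, the feeding label as a covariate, all 3 feeding groups in one fit, the replicate number as a block, and leaving out each replicate. Another 3 were chosen after seeing the data: raising values to the highest limit of detection, and leaving out the control parenchyma samples or the smallest library.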

Additional observations from a re-analysis of the deposited data

Results flagged for a closer look

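In 55 groups of 4 to 10 samples, 6 held a sample whose gap to the nearest other was large for the group's range by Dixon's criterion. The 55 include groups wholly at 0, which could not be flagged. Chance gives about 1 in 20 for normally distributed values, and these values were not transformed, so that rate is a rough guide only. Control replicate 19 of the fat pad had 18 detected members, where the next had 10. Restricted replicate 5 of parenchyma had 53.5 of miR-2336, where the next had 39.0. Ad libitum replicate 7 of the fat pad had 114 of miR-11987, where the next had 22.0. Control replicate 2 of liver stood apart in 3 members: miR-2478 (74.9, next 31.0), miR-11971 (42.0, next 17.2) and miR-2419-3p (14.6, all others at 0).

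The change of miR-2387 between milk replacer and control differed between the 3 tissues by the interaction test (limma adjusted p = 0.0188), with log2 differences of 1.88 in parenchyma, -0.01 in the fat pad and -0.61 in liver.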

How the results depend on the processing

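The counts of detected members changed with the limit used. Liver held 16.8 fewer than parenchyma, but 2.53 more at a value of at least 10 and 1.09 more at the common limit of 7.26 reads in 1000000. Against the fat pad, liver held 5.50 and 3.86 more under these limits, both of which passed, and 1.17 fewer (a difference of -1.17) in the milk replacer groups only. At a value of at least 10 the difference of milk replacer from control was -1 in parenchyma and 0.0833 in liver, that of ad libitum from restricted -0.833 in liver, and at the common limit that of milk replacer from control was 1.27 in liver. The share of the members in liver against parenchyma passed without miR-3431 (0.0158 percentage points).

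With 1 replicate left out, the difference in detected members between milk replacer and control ranged from 3.75 to 6.75 in parenchyma, 6.75 to 9.75 in the fat pad (passing without replicate 3, 13 or 19, at 8.25, 8.07 and 9.75) and -1.75 to 0 in liver. Between ad libitum and restricted it ranged from 2.03 to 6.63, 1.57 to 4.77 and -0.833 to 2.07 in the same order. The difference in share between milk replacer and control ranged from -0.0346 to -0.00551, -0.00277 to 0.00343 and -0.0106 to 0.000853, and between ad libitum and restricted from -0.00458 to 0.00162, -0.00314 to 0.00147 and 0.00782 to 0.0215. Members that passed between milk replacer and control numbered 4 to 6 in parenchyma, 0 to 1 in the fat pad and 0 in liver, and between ad libitum and restricted 1 to 3 in the fat pad (1 without replicate 9) and 0 in both other tissues.

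The filter on low values moved the number of members that passed, by its construction. With a mean of at least 1 the numbers were 27 for parenchyma against fat pad, 28 for liver against parenchyma and 4 for the interaction of milk replacer with tissue. With no filter they were 37, 39 and 10, and 8 for milk replacer against control in parenchyma. With a mean of at least 50 they were 5 for parenchyma against fat pad, 6 for liver against fat pad, 1 for ad libitum against restricted and 0 for milk replacer against control in the fat pad. The interaction gave 2 members with a pseudocount of 5, 3 with values raised to the highest limit of detection, and 0 with fat pad and liver only. Rescaling turned miR-3431 between parenchyma and fat pad to 0.0249, and in parenchyma it left 3 members higher and 0 lower with milk replacer. Raising the low values turned miR-11971 between ad libitum and restricted liver to -0.0382. In the milk replacer groups only, miR-2404 between liver and parenchyma (0.96, limma adjusted p = 0.158) and miR-11991 between liver and fat pad (1.53, adjusted p = 0.113) no longer passed. The cause was not tested.

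Replicate numbers were shared between tissues, and the labels do not say what they mark. Same-numbered samples correlated with a median of 0.124 over 14 pairs of parenchyma and fat pad, 0.0663 over 15 of parenchyma and liver and 0.127 over 16 of fat pad and liver, above 0.1 in 8, 5 and 9 of them, and the own number correlated best in 3, 3 and 5. With the replicate number as a block 10, 12 and 12 members passed in the tissue comparisons, and 0 and 1 in the interactions. No paired analysis was possible because the groups share no numbers in the feeding comparisons within a tissue.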

Other observations

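The values of miR-2419-5p were compared between same-numbered samples of different tissues. Number 7 was low in parenchyma, fat pad and liver (52.1, 26.4 and 197), number 4 likewise (66.1, 21.8 and 159), and numbers 5 (337, 158 and 916) and 6 (297, 183 and 1041) were high. Number 18, a control, went the other way, with the highest value of parenchyma (596) but 43.3 in the fat pad and the lowest value of liver (126). After each feeding group was centred, the correlation of same-numbered samples was 0.828 between parenchyma and fat pad (n = 14, permutation p = 0.00154, adjusted p = 0.502 over 326 miRNAs, rho = 0.754), 0.79 between fat pad and liver (n = 16, permutation p = 0.0015, adjusted p = 0.208 over 277, rho = 0.756) and 0.566 between parenchyma and liver (n = 15, permutation p = 0.0329, adjusted p = 0.989 over 296, rho = 0.629). Without the 2 samples farthest from the median these were 0.624, 0.715 and 0.574. The median over all miRNAs was 0.139, 0.0853 and 0.0558, and in each pair of tissues 1 miRNA had a higher correlation. In the 12 numbers fed milk replacer the values were 0.964, 0.843 and 0.841 (permutation adjusted p = 0.0134, 0.196 and 0.241), and 0.299% of 334 miRNAs passed in the first pair. For that pair rho was 0.909 (permutation adjusted p = 0.0835). The pattern was noticed in these data and then tested on them, and the labels do not say whether a number marks an animal. Only the 0.964 of the first pair passed the correction, and on ranks that pair did not pass.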
